A study of Zea mays with 45 samples.

Results

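Cystatins are small proteins that block papain-type cysteine proteases, and maize leaves make both partners. The 5 genes described here are 3 cystatin genes, psei1, psei2 and psei3, and 2 cysteine protease genes, mir3 and Mcysp, chosen by name among the 329 named genes of spotted cDNA arrays of maize leaf RNA. They were measured by 8 probes in each of the 2 deposited tables, of 5640 and 5760 probes. The genes psei1, mir3 and Mcysp had a pair of probes each, marked -a and -b below, and psei2 and psei3 had 1 probe each. The current maize annotation lists these genes under the symbols LOC542213 (psei1), LOC100101525 (psei2), LOC732752 (psei3), LOC100037824 (mir3) and LOC542438 (Mcysp).

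The study used the inbred line W23, some of it as a stock with b and pl alleles, and 5 landraces (Confite and Mishca, and Arrocillo, Cacahuacintle and Conico), to ask how leaves of high-altitude maize respond to ultraviolet-B light (UV-B). In the field comparisons, which had 13 deposited columns for solar and 12 for supplemental UV-B, plants of all 6 lines stood under plastic sheets put up 14 days after sowing. The solar set compared leaves under sheets that pass UV-B with leaves under sheets that absorb it, and the supplemental set compared leaves given extra UV-B by lamps with leaves in solar UV-B. A further 20 columns set landrace leaves against W23 leaves that had the same treatment, either supplementary UV-B or none. Of these, the 12 for Arrocillo, Cacahuacintle and Conico formed their own table, and the 8 for Confite and Mishca came from plants grown 3 weeks in a greenhouse and kept 8 h under the lamps. Cacahuacintle had 3 arrays without UV-B and 1 with UV-B, by their titles, where Arrocillo and Conico had equal numbers. The leaves were not sorted into cell types, and since ratios give no levels, leaf identity could not be checked against marker genes. In such whole-leaf RNA, fewer cells of a type and less RNA per cell cannot be told apart. The labels do not say which arrays came from separate plants, so p-values measure the spread between arrays, which may be technical.

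Each array set a pair of RNAs against each other and gave 1 log2 ratio per spot. The labels say which RNA each channel held but not which was divided by which, so values are described by their side of 0, positive or negative, and neither side is read as more RNA in either sample. Among the 45 columns, 8 held the values of another column with the channels labelled the other way round, and 1 solar column of W23 was an average of the rest, which left 36 distinct arrays. These had between 4644 and 16553 measured spots, and their deposited medians lay between -0.47 and 0.61, which centring on the array median removed. A probe was called at a Benjamini-Hochberg adjusted p under 0.05 in a limma fit over all probes tested, and estimates are given with their standard error (SE) in log2 units. The spotted cDNAs can also bind transcripts of close relatives, so values of 1 cystatin or protease gene are uncertain at the level of the gene.

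Cystatins are active site inhibitors that hold the protease without being cut, and plants use them to control their own proteases during seed storage protein use, ageing and stress, and against the digestive proteases of insects. Papain-type proteases break down leaf proteins in vacuoles and outside the cell. The mir genes of maize were named for insect resistance and code for papain-type proteases, and mir3 is not a microRNA.

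The most stable result concerned psei2, the cystatin II gene, in the comparison of landrace leaves with W23 leaves. Its ratio lay on the negative side on 17 of the 18 landrace arrays that measured it. In all 7 groups with arrays of both channel orders, the side was the same whichever channel held the landrace RNA. How many of all probes keep their side in this way was not counted. In the set with Conico, arrays of 1 group with opposite channel orders had a median r of 0.205 over all probes. Arrays of different groups with the same channel order had 0.539.

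In Arrocillo the psei2 log2 ratios were -0.70 and -0.87 on the arrays with UV-B and -0.56 and -0.76 on those without. In Conico they were -0.89 and -1.08 with UV-B and -0.62 and -0.70 without. These 8 arrays did not overlap with 0 and lay within a narrow band. Cacahuacintle stood apart with 0.01 on its array with UV-B and -0.15, -0.44 and -0.75 on those without. The fitted mean over the 3 landraces was -0.60 ± 0.06 (SE, 12 arrays), a difference of 1.52-fold in size, with an adjusted p of 2.01e-05 (limma). Of the 7 member probes tested in this mean, 2 were called, psei2 and psei3, both on the negative side, against a background of 25.6% of all probes, or 12.1% on that side. In size, psei2 ranked 176 among the 5353 probes tested, whose median size was 0.12. It was called in Arrocillo at -0.72 ± 0.10 (adjusted p 0.000978, limma) and in Conico at -0.82 ± 0.10 (adjusted p 0.000505, limma), where 8.2% and 5.32% of all probes were called. In Cacahuacintle its -0.25 ± 0.12 did not pass (adjusted p 0.218, limma). The test of a difference between the landraces did not pass either (adjusted p 0.603, limma F test), so a difference of Cacahuacintle from the others was not shown. Leaving out any 1 array kept the mean between -0.65 and -0.58. The mean stayed called under 24 of 25 alternatives, and was not called if ratios are read as following the channel order (-0.11).

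On the separate arrays of Confite and Mishca, psei2 was also on the negative side wherever it was measured. Confite had -1.65 and -1.20 with UV-B and -0.10 on the 1 array without UV-B that measured it. Mishca had -1.05 and -0.003 with UV-B and -0.40 without. All 6 values were below 0, but they spanned more than those of the other landraces. Their mean of -0.57 ± 0.20 was of the same size as in the other table and was not called (adjusted p 0.179, limma). In this set the fit gave all probes 1 common spread, so the SE does not measure the spread of psei2 itself. The 6 psei2 values had an SD of 0.665. In that set 3 of the 8 member probes could be tested and none was called, where 1.63% of all probes were called. The psei2 mean was called with the replicate number as a block (-0.80, adjusted p 0.031, limma), which gives the value at replicate 1 and not an average over replicates. It was also called with repeated columns counted as arrays (-0.59, adjusted p 0.00589, limma).

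UV-B itself made no called difference to psei2 in landrace leaves relative to W23. The contrast of arrays with UV-B against those without was -0.13 ± 0.21 in Arrocillo, 0.30 ± 0.26 in Cacahuacintle and -0.33 ± 0.21 in Conico. Averaged over the 3 landraces it was -0.05 ± 0.13 (adjusted p 0.984, limma), and none of the 7 member probes tested was called. Across all 5353 probes 0% were called at the adjusted threshold by limma and 257 had an unadjusted p under 0.05. In Confite the contrast for psei2 was -1.48 ± 0.59 and did not pass (adjusted p 0.999, limma).

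**Figure D1:**
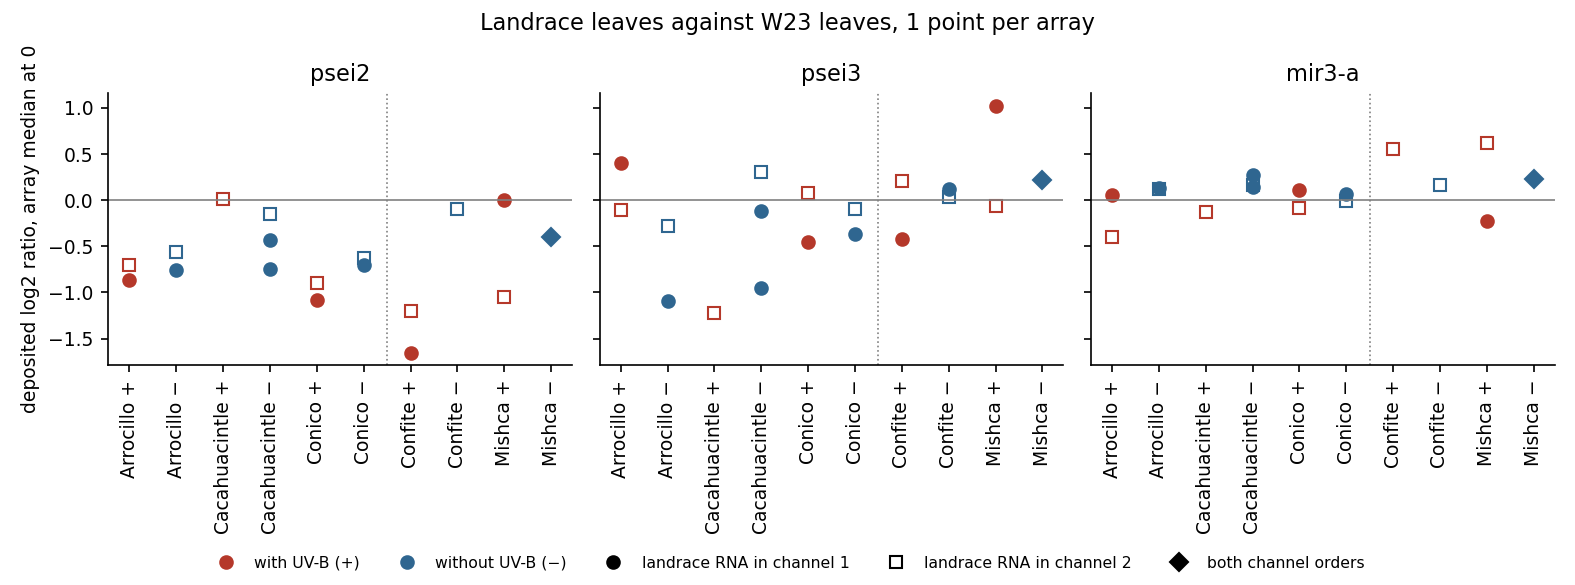
Log2 ratios of psei2, psei3 and the first mir3 probe on each landrace array, with the array median at 0. Each point is 1 array, colours give arrays with and without UV-B, shapes give the channel order, and the dotted line separates the 2 tables; psei2 lies below 0 on 17 of 18 arrays while psei3 and mir3-a scatter around 0.

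The cystatin 3 gene, psei3, differed from psei2 in how even its ratios were. In Cacahuacintle it had -1.22 with UV-B and 0.31, -0.12 and -0.95 without. In Arrocillo it had -0.11 and 0.40 with UV-B and -0.27 and -1.09 without. In Conico it had 0.08 and -0.45 with UV-B and -0.10 and -0.37 without. Values on both sides of 0 thus occurred in each of the 3 landraces. The mean was -0.43 ± 0.10 (adjusted p 0.00824, limma) and rested on Cacahuacintle, whose estimate of -0.81 ± 0.20 was called (adjusted p 0.0216, limma) where 8.87% of all probes were. Without the Cacahuacintle array with UV-B, the mean was -0.22 (adjusted p 0.14) and the Cacahuacintle estimate -0.18 (adjusted p 0.621), both from the same limma fit. With the replicate number as a block they were -0.22 (adjusted p 0.214) and -0.49 (adjusted p 0.154, limma), and neither was called. These block values stand at the level of replicate 1. In Confite and Mishca psei3 averaged 0.17 ± 0.18 (adjusted p 0.996, limma), with 1.02 on 1 Mishca array with UV-B as the highest value.

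No probe of the remaining cystatin or of the proteases was called in the landrace comparison. The cystatin I gene psei1 averaged -0.06 ± 0.09 with its first probe and -0.21 ± 0.08 with its second (adjusted p 0.637 and 0.0765, limma). The protease gene mir3 averaged 0.02 ± 0.06 and -0.06 ± 0.07 with its probes, and Mcysp-a averaged -0.03 ± 0.07. The second psei1 probe was called under 4 of 25 alternatives, with adjusted p from 0.00924 to 0.929 (limma). The Mcysp-b probe was measured on 8 of the 12 arrays, too few to be tested, and was at 1.65 on the Cacahuacintle array with UV-B against -0.53 to 0.36 on the other 7.

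Set side by side, the 4 cystatin probes had a median of -0.32 in the mean over the 3 landraces and the 3 protease probes tested had a median of -0.03. The cystatin median was -0.21 in Arrocillo, -0.33 in Cacahuacintle and -0.22 in Conico, while the protease medians were 0.03, -0.11 and -0.01 in that order. The median of all 5353 probes in the same fit was -0.012. The difference of the cystatin and protease medians, -0.29, is given without a test.

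Under solar UV-B, compared with no UV-B, 2 of the 8 member probes were called in the mean over the 6 lines, both of proteases and both on the positive side, against 35% of all probes called, or 16.9% on that side. They were Mcysp-b, at 0.16 ± 0.05 (adjusted p 0.0443), and mir3-b, at 0.25 ± 0.06 (adjusted p 0.0281, limma for both). The share of 2 in 8 is near that background. None of the 8 was called for a difference between lines, where 0.0236% of all probes were. Both calls were lost under many alternatives: Mcysp-b was not called without Confite (0.10), Arrocillo (0.10) or Cacahuacintle (0.11), and mir3-b was not called after centring each section of the array (0.10, adjusted p 0.0898). Among called probes, 48.4% lay on the positive side with centred arrays and 77.1% without centring.

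The Mcysp gene, which codes for a cysteine protease, had its largest solar values in Conico. There the second probe had -0.88 and -0.76 on the 2 arrays. The other 5 lines had it on the positive side on every array, with 0.44 in Arrocillo, 0.39 in Cacahuacintle, 0.43 in Confite, 0.23 and 0.09 in Mishca and 0.45 and 0.22 in W23. Conico thus did not overlap with any other line for this probe. The share of all probes with such a gap was not counted. Its estimate of -0.82 ± 0.09 was called (adjusted p 0.0212, limma), where 4.67% of all probes were called, and that of W23, 0.34 ± 0.09, was called as well (adjusted p 0.0457, limma), where 23.8% were. The W23 call was kept under only 17 of 30 alternatives. Among those that lost it was the replicate number as a block, where estimates stand at the level of replicate 1 (adjusted p 0.0529, limma). The test of a difference between lines gave an adjusted p of 0.0566 for this probe (limma F test), just outside the threshold, and 0.0293 after centring each section. In that test 1 of 4239 probes was called, and 1751 had an unadjusted p under 0.05.

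The first Mcysp probe also had its lowest value in Conico, while the other lines stood in another order. In Conico it had -0.55 and -0.16, against 0.02 and 0.53 in W23, -0.04 and 0.31 in Mishca, 0.22 in Confite, 0.05 in Cacahuacintle and -0.07 in Arrocillo. The higher Conico array lay below every array of the other lines for this probe too, again without a count over all probes. Its estimate of -0.36 ± 0.08 did not pass (adjusted p 0.0606, limma), nor did that of W23 at 0.28 ± 0.08 (adjusted p 0.0504, limma). Without 1 of the 2 Conico arrays, which leaves 1 array for the line, the estimate of Mcysp-b was -0.67 or -0.97 and was not called. The cause of the lost call was not tested.

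**Figure D2:**
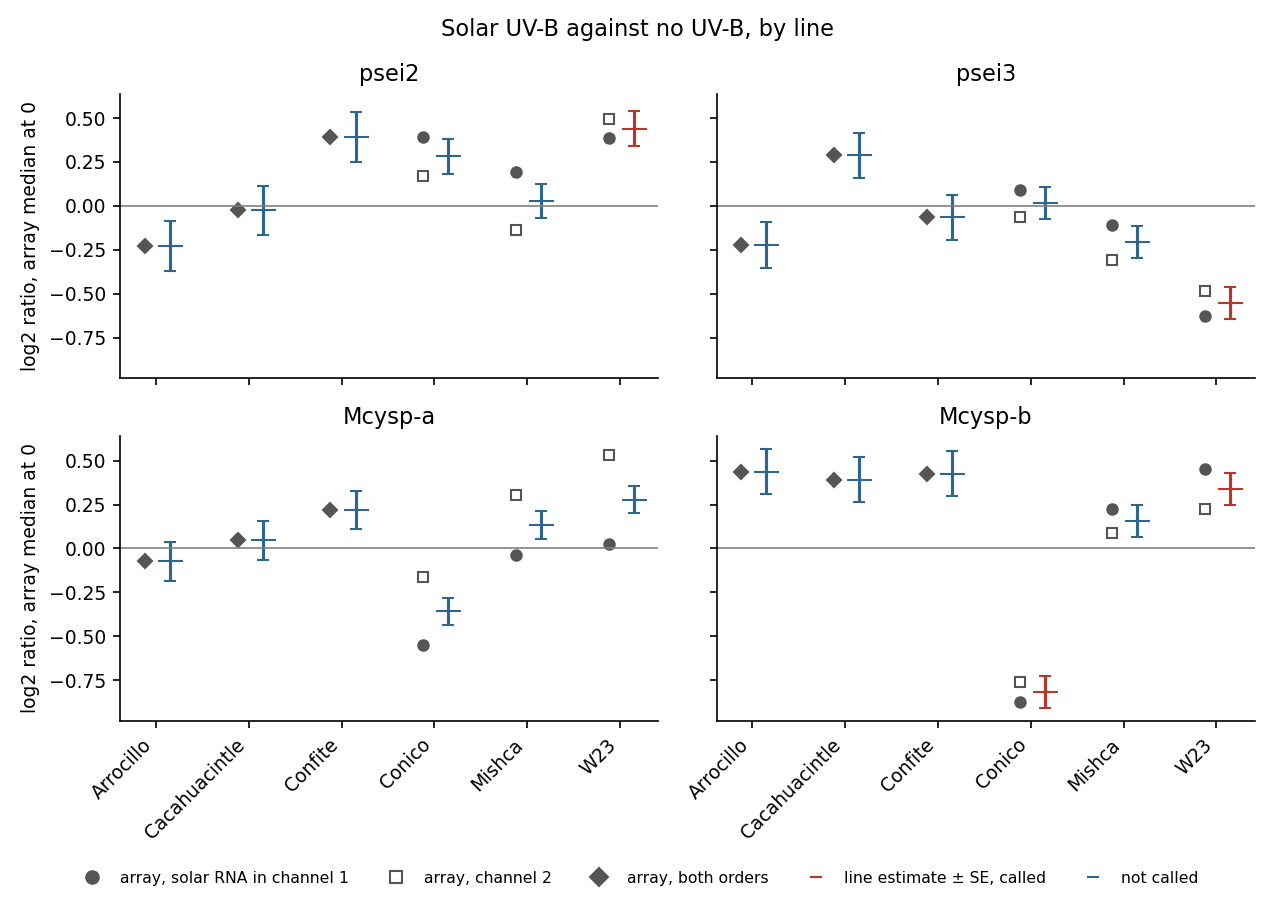
Solar UV-B against no UV-B in the 6 lines for psei2, psei3 and both Mcysp probes, as log2 ratios with the array median at 0. Grey points are arrays, with shapes for the channel order, and bars are line estimates ± SE, red where called; Mcysp-b lies at -0.88 and -0.76 in Conico and above 0 in every other line.

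In the inbred W23 the solar comparison set 2 cystatins on opposite sides. The psei2 ratios were 0.39 and 0.49 and the psei3 ratios were -0.63 and -0.48. Both pairs lay close together and away from 0. The estimates were 0.44 ± 0.10 for psei2 (adjusted p 0.0304) and -0.56 ± 0.09 for psei3 (adjusted p 0.016, limma for both). Without centring the arrays, psei3 in W23 was -0.18 and was not called (adjusted p 0.304, limma). Leaving out 1 of the W23 arrays gave 0.25 or 0.63 for psei2, and it was called both times. Neither cystatin was called without the channel term (adjusted p 0.15 for psei2 and 0.0793 for psei3, limma). With Mcysp-b, 3 of the 8 member probes were called in W23, against 23.8% of all probes. In the landraces neither cystatin was called. The psei2 ratios were 0.39 in Confite, 0.39 and 0.17 in Conico, 0.19 and -0.14 in Mishca, -0.03 in Cacahuacintle and -0.23 in Arrocillo. Those of psei3 were 0.29 in Cacahuacintle, 0.09 and -0.06 in Conico, -0.07 in Confite, -0.22 in Arrocillo and -0.11 and -0.31 in Mishca. The tests of a difference between lines did not pass for psei2 (adjusted p 0.116) or psei3 (adjusted p 0.0805, limma F test), so W23 was not shown to differ from the landraces. The mean of psei2 over the 6 lines was 0.15 ± 0.05 (adjusted p 0.0654, limma). It was called with the replicate block, at the level of replicate 1 (0.18, adjusted p 0.0426, limma).

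The psei1 probes and mir3-a had small solar means, and mir3-b the largest mean of the 8 probes. The means were -0.05 ± 0.04 for psei1-a, -0.04 ± 0.04 for psei1-b and 0.07 ± 0.04 for mir3-a, none of them called. The mir3-b ratios were 0.49 in Confite, 0.57 and -0.05 in Conico, 0.65 and -0.36 in Mishca, 0.19 on the 1 W23 array that measured it, 0.05 in Arrocillo and -0.06 in Cacahuacintle. Conico and Mishca thus had mir3-b on both sides of 0, and no line estimate of it was called, the highest being 0.60 ± 0.16 in W23. That estimate is the 1 W23 array at 0.19 moved by the channel term, which the arrays of Conico and Mishca set. The called mean of mir3-b over the lines includes it. In Conico psei1-a reached 0.26 and 0.39, while psei1-b was at -0.07 and -0.35 on the same arrays, so the probes of this gene lay on opposite sides. The protease medians were on the positive side in 4 of 6 lines, from 0.06 in Arrocillo to 0.36 in Confite, with -0.01 in Cacahuacintle and -0.20 in Conico. The cystatin medians ranged from -0.13 in Mishca to 0.15 in Conico.

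Leaves given supplemental UV-B, set against leaves in solar UV-B, gave calls for both Mcysp probes and for 2 of the 4 cystatin probes. In the mean over 6 lines these 4 of the 8 member probes were called, all on the positive side, against 31.7% of all probes, or 15.5% on that side. They were psei3 at 0.41 ± 0.08 (adjusted p 0.00114), psei1-b at 0.38 ± 0.09 (adjusted p 0.0032), Mcysp-b at 0.32 ± 0.08 (adjusted p 0.0073) and Mcysp-a at 0.26 ± 0.08 (adjusted p 0.0188), all by limma. The other cystatin probes were not called, with 0.11 ± 0.07 for psei1-a (adjusted p 0.265) and 0.16 ± 0.08 for psei2 (adjusted p 0.131, limma). This comparison had 8 distinct arrays and 1 residual degree of freedom, and on simulated data its fit called more unchanged probes than the threshold allows. With the prior degrees of freedom of the solar fit in place of its own, none of these 4 was called (adjusted p 0.0856 to 0.124), and no probe of the array was (1568 at an unadjusted p under 0.05, by limma in both cases). 

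Mcysp was the more even of the called genes across arrays, but its means depended on the channel labels of the repeated columns. Over 24 alternatives the mean ran from 0.06 to 0.45 for Mcysp-a and from 0.14 to 0.50 for Mcysp-b. The lowest came with the order of the first label of the repeated columns and the highest with that of the second. Each probe was called under 18 of the 24. Its first probe had 0.39 in Arrocillo, 0.28 in Cacahuacintle, 0.44 and 0.17 in Confite, 0.71 and -0.19 in Conico, 0.01 in Mishca and 0.30 in W23. Its second probe had 0.44, 0.28, 0.54 and 0.42, 0.77 and -0.18, 0.29 and 0.14 in the same order. Only 1 of the 8 arrays, of Conico, was below 0, and it was so for both probes. The called cystatin probes psei3 and psei1-b were also above 0 on 7 of the 8 arrays. Lines did not differ by the F test (adjusted p 0.907 and 0.901, limma).

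Mishca carried the largest cystatin values of the supplemental set, and its array stood apart. On that array psei3 was 1.34, psei1-b 1.03, psei2 0.63 and psei1-a 0.36, and the first 3 were called for Mishca, where 41.5% of all probes were called. The log2 ratios of this array had an SD of 0.66, against 0.29 to 0.42 on the other 7. Without Mishca the means were 0.23 for psei3 (adjusted p 0.0734) and 0.25 for psei1-b (adjusted p 0.0669, limma), and neither was called. When arrays were scaled to equal spread, psei3 in Mishca was 0.76 and was not called (adjusted p 0.164, limma). The part of the array's spread in these values was not tested.

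On the other arrays psei3 was 0.38 in Arrocillo, 0.34 in Cacahuacintle, -0.34 and 0.35 in Confite, 0.05 and 0.07 in Conico and 0.36 in W23. The psei2 ratios were 0.42 and 0.56 in Confite, 0.28 in Arrocillo and 0.32 in W23, against -0.16 and -0.65 in Conico and -0.36 in Cacahuacintle. Confite and Conico, each with 2 arrays, did not overlap for psei2, and how many of all probes do the same was not counted. The test of a difference between lines called psei2 (adjusted p 0.0124) and psei3 (adjusted p 0.0135, limma F test), where 24.6% of all probes were called. In this test the residual spread came from Confite and Conico alone. The psei2 call was kept under 17 of 24 alternatives and the psei3 call under 15 of 24. Without Mishca the adjusted p was 0.0522 for psei2 and 0.751 for psei3 (limma F test). Neither mir3 probe was called, at -0.07 ± 0.08 and -0.10 ± 0.08.

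**Figure D3:**
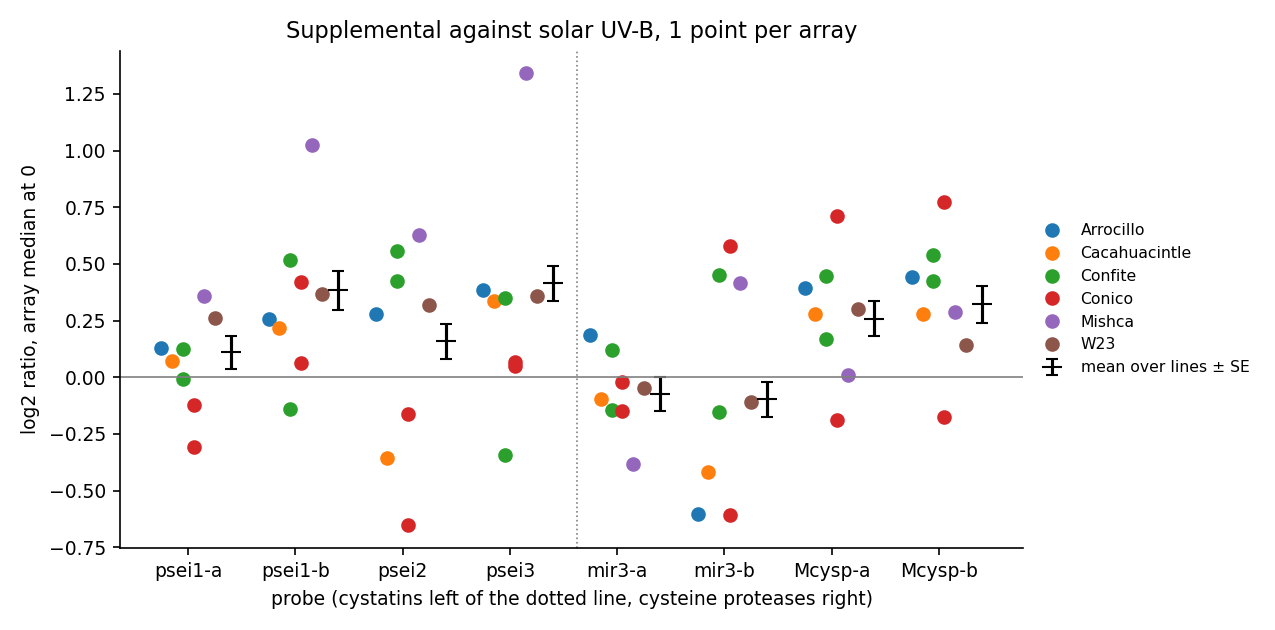
Supplemental against solar UV-B for the 8 probes, as log2 ratios with the array median at 0, with cystatins left and proteases right of the dotted line. Points are arrays coloured by line and black bars are means over lines ± SE. Both Mcysp probes, psei3 and psei1-b are above 0 on 7 of 8 arrays, and the Mishca array gives the highest value of each cystatin.

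Set side by side, the cystatin median was 0.83 and the protease median 0.15 in Mishca. In the other lines the cystatin medians ran from -0.08 in Conico to 0.34 in W23, and the protease medians from 0.05 in W23 to 0.29 in Arrocillo. In the mean over lines they were 0.27 for the 4 cystatin probes and 0.09 for the 4 protease probes. This protease median describes neither gene, as it lies between Mcysp at 0.26 and 0.32 and mir3 at -0.07 and -0.10. Protease medians of the other comparisons with both genes pool their probes in the same way.

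The paired probes of 1 gene told how far each gene can be read. Those of Mcysp lay on the same side on 24 of 30 arrays and correlated at r = 0.574, and in the supplemental set they did so on 8 of 8 arrays with a median difference of 0.08. Those of psei1 lay on the same side on 13 of 31 arrays (r = 0.355). Those of mir3 lay on the same side on 11 of 31 arrays and correlated negatively, at r = -0.457. These correlations are descriptions over arrays that share RNA samples and probes. After centring each section of the array, r for the mir3 probes was 0.036 in the first table, against -0.36 before over 19 arrays, and -0.62 in the second table, of the 12 landrace arrays with Conico, against -0.739 before over 12 arrays. The probes of each of the 3 genes lay in different sections. Since its probes disagree, mir3 is described by probe and not as a gene.

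**Figure D4:**
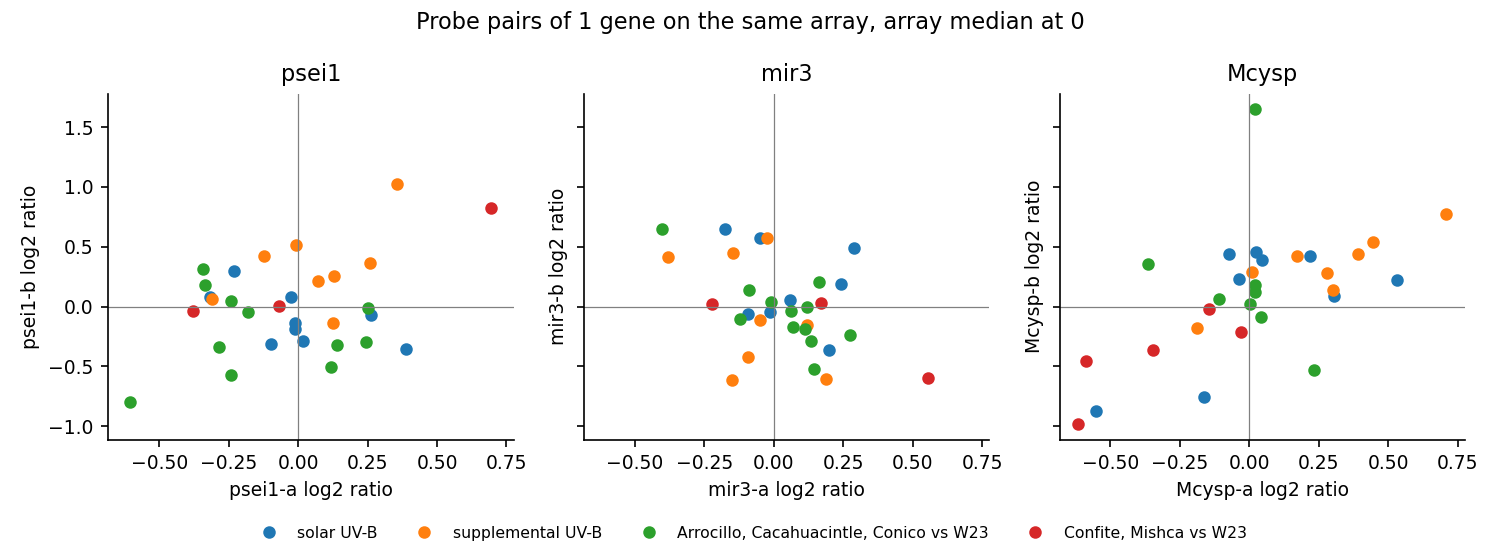
Second against first probe of psei1, mir3 and Mcysp on the same array, as log2 ratios with the array median at 0, coloured by comparison. The Mcysp points follow a rising line except for the Arrocillo, Cacahuacintle and Conico arrays, while those of mir3 fall on opposite sides of 0 on 20 of 31 arrays.

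Of the other proteolysis genes sought by name, 3 were on the arrays. They were ccp1 and ccp2, further cysteine protease genes, the second also called see1 for its higher expression in ageing leaves, and lon1, which codes for an ATP-dependent protease. None was called under solar UV-B, where they lay at 0.11 for ccp2, 0.09 for ccp1 and 0.03 for lon1, nor under supplemental UV-B, where they lay between -0.02 and 0.02. Of all probes, 35% were called in the solar mean and 31.7% in the supplemental mean. In the mean over Arrocillo, Cacahuacintle and Conico, ccp2 was called on the negative side at -0.40 ± 0.06 (adjusted p 0.00056, limma). There ccp1 at -0.16 and lon1 at -0.01 were not called. In that mean 25.6% of all probes were called, 12.1% on the negative side.

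Of 8 probes of 6 wound and defence genes, 7 were tested under solar UV-B. There 3 were called, all on the positive side, against 35% of all probes, or 16.9% on that side: opr6 of jasmonate-type oxylipin synthesis at 0.65, the pathogenesis-related gene pr5 at 0.42 and the jasmonate synthesis gene aos1 at 0.33. In the landrace comparison 4 of 8 were called on the negative side, with the chitinase gene chn1 at -0.94 and opr6 at -0.84 furthest from 0, and 1 was called on the positive side, where 25.6% of all probes were called, 12.1% on the negative side. Under supplemental UV-B 2 of the 7 tested were called on each side, where 31.7% of all probes were called.

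The named gene probes with the ratios most like those of a member were found over the distinct arrays of a table, as a description. In the first table psei3 was most like sus2 (r = 0.965) and lip15 (r = 0.956, 23 arrays each), and psei1-b was most like lip15 (r = 0.906, 22 arrays). The psei3 and psei1-b probes were also alike there, with r = 0.899 over 22 arrays, or 0.702 after centring each section. On the 12 arrays of the second table their r was 0.572, or 0.346 with sections centred. Also in the first table, psei2 was most like the probe named DBB11 (r = 0.839, 23 arrays). Both Mcysp probes were most like CPN60I there (r = 0.79 and 0.792, 18 arrays each). On the 12 arrays of Arrocillo, Cacahuacintle and Conico, other genes came first for each member, ss2 for psei2 (r = 0.774, 12 arrays).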

How the data were processed

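Each deposited value is a log2 ratio of 1 spot on 1 array. The authors' design text describes models of base-2 log intensities with line, treatment, array and dye terms and a threshold on weak spots, per the labels of the series. Whether the deposited log2 values passed through these models, how channels were scaled and which RNA is the numerator is not given in the sources used here. No pair of arrays of 1 group or of the same channel order had a correlation below -0.3. Between groups of opposite channel order, 3 of 6 solar pairs did (lowest -0.531), as did 1 of 2 supplemental pairs (-0.321 and -0.299), and the supplemental pairs within a group were at -0.114 and -0.068, so the reading of ratios as following the channel order is among the alternatives.

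Columns equal to another up to a constant (SD of the difference under 0.01) were counted once. The 3 spots of a probe were averaged (median SD 0.03 and 0.04), blank spots were taken as missing, and arrays were centred on their median. Probes on at least 75% of arrays and 1 array of each group entered a linear model per probe, with a coefficient per line, or landrace and UV-B state, and a channel term, coded 0 for columns deposited under both channel orders. Moderated two-sided tests came from limma 3.58.1 in R 4.3.3, with Benjamini-Hochberg adjustment over all probes tested: 4239 in the solar set (2 residual degrees of freedom), 4744 in the supplemental set (1), 5353 in the landrace set with Conico (5) and 2089 in that with Mishca (2). Lines with 1 array borrow the spread of the others. Tables were tested apart. The fit was tested on simulated data, where the share of false calls was well above the threshold in the supplemental set.

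Gene names came from the old platform annotation and the synonyms of a current maize annotation (Zm-B73-REFERENCE-NAM-5.0), and 314 of the 329 genes matched. No sequences or coordinates were used. The members and the gene lists were chosen with earlier results of these data known. Named genes were all member probes, up to 4 called genes of a list and the most alike gene probes. Of the marker lists, 3 mesophyll probes of 4 and neither of 2 bundle sheath probes were called under solar UV-B, and, of those tested, 1 of 4 seed probes on each side and the 1 pollen probe. In Arrocillo, Cacahuacintle and Conico the mean called 1 mesophyll, 1 bundle sheath and 3 seed probes, under supplemental UV-B 2 seed and 1 pollen probe, and in Confite and Mishca none of those tested. Their part in the results was not tested.

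Same-numbered arrays deviated together in the solar set (r 0.482 to 0.879 over 3 pairs), where the replicate number is also the channel order. The number of arrays and, for weak spots, the blank share, 4.02% to 72.6% of spots, limit the precision. Alternatives changed the centring, scaling, channel term, repeated columns, filter, spot summary, moderation, replicate block, and the arrays and lines used.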

Additional observations from a re-analysis of the deposited data

Results flagged for a closer look

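Under supplemental UV-B, psei2 was marked because the test of a difference between lines called it (adjusted p 0.0124, limma F test). Its estimates ran from 0.63 in Mishca to -0.41 in Conico. The fit had 1 residual degree of freedom, and the call was kept under 17 of 24 alternatives, that of psei3 under 15. The psei3 ratios were marked for the same reason (adjusted p 0.0135, limma F test), from 1.34 in Mishca to 0.004 in Confite. Without the Mishca array the adjusted p was 0.0522 for psei2 and 0.751 for psei3.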

How the results depend on the processing

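Across 1518 refits of 59 results on member probes, 1258 kept their direction and their side of the threshold, 123 lost a call, 89 gained one and 48 changed sign. The psei2 mean in Arrocillo, Cacahuacintle and Conico kept its call under every alternative run except where the sign was turned with the channel order. The causes of the changes were not tested. The number of arrays, and the 1 residual degree of freedom of the supplemental set, limit all calls. Of 4239 probes tested, 1485 were called in the solar mean over 6 lines, and this became 652 without centring, 11 without the channel term, 0 where ratios follow the channel order (328 at an unadjusted p under 0.05), 2 without moderation, 653 with only lines of both channel orders, 2649 without W23 and 897 without Confite, and 809 to 2567 leaving out 1 array. Calls for a difference between lines, 1 in the solar set, became 0 without centring, without the channel term or where ratios follow the channel order (1338, 372 and 111 unadjusted), 821 with sections centred, 426 with equal spread, 2 without moderation, 2045 with repeated columns counted, 748 with the order of their second label, 2067 with the third W23 column, 3 with only lines of both orders, or 1056 with sections centred as well (added after seeing the data), and 3055, 111, 635 and 133 without W23, Confite, Mishca and Conico, with 1 to 3225 leaving out 1 array. The 1504 calls of the supplemental mean became 879 with equal spread, 0 without the channel term, where ratios follow the channel order or without moderation (824, 1084 and 427 unadjusted), 0 with the prior degrees of freedom of the solar fit (1568 unadjusted, added after seeing the data), 2814 with repeated columns counted, 184 with only lines of both orders, 1000 with sections centred as well, 733 without Mishca, and 733 to 1485 leaving out 1 array. The 1368 calls of the mean over Arrocillo, Cacahuacintle and Conico became 885 without the channel term, 60 where ratios follow the channel order, 892 without moderation, 786 without Cacahuacintle and 783 without Conico, and 955 to 1548 leaving out 1 array. Their 0 calls for UV-B became 7 with sections centred, 2 with equal spread, 1 without Arrocillo or Conico, and 0 to 10 leaving out 1 array, and their 6 calls between landraces became 3 without centring, 18 with equal spread, 2 without the channel term, 0 where ratios follow the channel order or without moderation (306 and 277 unadjusted), 1 without Cacahuacintle or Conico, and 0 to 8 leaving out 1 array. The 34 calls in Confite and Mishca became 0 with sections centred, where ratios follow the channel order or without moderation (168, 125 and 103 unadjusted), 9 without the channel term, 5 with probes on every array, 120 with repeated columns counted, and 6 to 58 leaving out 1 array. The replicate block took replicate 1 as its baseline, so line, landrace and mean estimates stand at the level of replicate 1 and are no average over replicates. With this block, the counts were 1969 in the solar mean and 1 between lines, and 1503 in the supplemental mean. They were 958, 0 and 1 in the landrace set with Conico and 19 in that with Mishca. Same-numbered arrays had r above 0.1 in 9 of 10 pairs with Conico (-0.106 to 0.75). The same held in 2 of 3 pairs with Mishca (-0.247 to 0.262) and in the 1 supplemental pair (0.661). In the solar and supplemental sets and that with Conico, the number follows the channel order, so pairing and channel cannot be told apart. The block left psei3 uncalled in the landrace mean (-0.22, adjusted p 0.214) and in Cacahuacintle (-0.49, adjusted p 0.154), called mir3-b in the supplemental mean (-0.25, adjusted p 0.0349, limma), and changed the sign of psei1-b (0.0097) and Mcysp-a (-0.063) in the solar set, of psei1-a (0.021), Mcysp-a (0.064), mir3-a (-0.057) and mir3-b (0.15) in the landrace mean and of psei3 in Confite and Mishca (-0.055). Where ratios follow the channel order, signs changed for psei2 in W23 (-0.054) and in the solar mean (-0.071), psei1-a (0.005), psei1-b (0.095), psei3 (0.039), Mcysp-a (-0.14) and mir3-a (-0.099) under solar UV-B, psei3 in Cacahuacintle (0.38) and the landrace mean (0.035), and psei2 (0.20) and Mcysp-b (0.056) in Confite and Mishca. Without centring they changed for psei1-a (0.026) and psei1-b (0.04) under solar UV-B and mir3-a in the landrace mean (-0.044), and with sections centred for supplemental mir3-b (0.052) and landrace mir3-a (-0.023). With only lines of both orders they changed for solar psei1-a (0.091), solar Mcysp-b (-0.11), supplemental psei1-a (-0.079) and supplemental mir3-b (0.066), and with sections centred as well for solar psei1-a (0.057), Mcysp-b (-0.079) and mir3-a (-0.026) and supplemental psei1-a (-0.011), psei2 (-0.040) and mir3-b (0.042). Leaving out a line changed the sign of supplemental mir3-b (0.0037 without Arrocillo, and 0.20 with repeated columns in the order of their first label), of landrace Mcysp-a (0.0099), mir3-a (-0.0005) and mir3-b (0.017) without Cacahuacintle, solar psei1-a (0.0035) without Confite, solar psei1-b (0.0006) and psei3 in the greenhouse set (-0.014) without Mishca, and solar psei1-b (0.0037) and Mcysp-a (-0.0068) without W23. Leaving out 1 array gave ranges that crossed 0 for solar psei1-a (-0.064 to 0.0035), supplemental mir3-b (-0.20 to 0.0037), landrace Mcysp-a (-0.071 to 0.0053) and mir3-a (-0.016 to 0.056), and psei3 in Confite and Mishca (-0.0005 to 0.34).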
